A study of Mus musculus with 12 samples.

Results

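The receptor tyrosine kinase RET, its co-receptors and its ligands were followed in mouse muscle as 10 genes, Ret, Gfra1, Gfra2, Gfra3, Gfra4, Gfral, Gdnf, Nrtn, Artn and Gdf15. They were chosen by gene name from a table of 54532 genes, and each was found once. The tissue was the gastrocnemius, a calf muscle, taken from female mice of the immunodeficient ICR SCID strain, whose age the labels do not give. TL mice carried a subcutaneous HT1080 tumour, a human fibrosarcoma cell line, and were given the RET inhibitor selpercatinib by mouth (oral gavage, 30 mg/kg, 1 dose a day, 19 days). TV mice carried the same tumour and were given vehicle, and NTV mice were tumour-free and were given vehicle too. Each group had 4 libraries, which the series' design calls biological replicates. The cell line field names HT1080 for all 12 samples, the tumour-free ones included.

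RET signals when a ligand of the GDNF family has bound a co-receptor of the GFRα family that is anchored in the membrane by a lipid. GDNF prefers GFRα1, neurturin GFRα2, artemin GFRα3 and persephin GFRα4. GDF15, a stress hormone that lowers appetite, acts through GFRAL, a co-receptor found mainly in the hindbrain. In muscle, GDNF and neurturin are known as trophic factors for the motor neurons that innervate the fibres, and GDNF is made both by muscle and by the Schwann cells of its nerves.

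Promoters are shown for members whose TV and NTV levels did not overlap and that had an entry in the RefSeq table for GRCm38.p6, which holds 7 of the 10 members. Ret, Gfra2 and Gfra3 have no entry. Each sequence is the 250 bases before a transcription start, 5′ to 3′ on the strand of the gene. Capitals mark matches to any of 8 motifs searched on both strands, which were AP-1 (TGANTCA), CRE (TGACGTCA), CARE (TGATGNAA), STAT (TTCNNNGAA), FoxO (GTAAACA), E-box (CAGCTG), GC box (GGGCGG) and TATA box (TATAAA). AP-1, CRE, STAT and E-box read the same on both strands. Gdnf has a pair of annotated starts, at chr15:7809798-7810047 and chr15:7813477-7813726, both on the plus strand. Artn was read at chr4:117929764-117930013 and Gfra1 at chr19:58455399-58455648, both on the minus strand.
Gdnf promoter 1: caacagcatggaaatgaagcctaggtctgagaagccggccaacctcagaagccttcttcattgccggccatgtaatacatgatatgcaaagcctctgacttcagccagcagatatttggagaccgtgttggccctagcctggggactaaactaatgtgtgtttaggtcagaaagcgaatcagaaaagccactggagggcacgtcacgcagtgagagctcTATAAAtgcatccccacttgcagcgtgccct
Gdnf promoter 2: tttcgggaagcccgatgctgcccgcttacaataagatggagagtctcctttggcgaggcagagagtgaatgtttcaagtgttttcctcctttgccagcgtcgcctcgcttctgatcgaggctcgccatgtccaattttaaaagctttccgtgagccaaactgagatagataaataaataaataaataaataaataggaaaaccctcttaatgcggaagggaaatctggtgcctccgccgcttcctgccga
Artn promoter 1: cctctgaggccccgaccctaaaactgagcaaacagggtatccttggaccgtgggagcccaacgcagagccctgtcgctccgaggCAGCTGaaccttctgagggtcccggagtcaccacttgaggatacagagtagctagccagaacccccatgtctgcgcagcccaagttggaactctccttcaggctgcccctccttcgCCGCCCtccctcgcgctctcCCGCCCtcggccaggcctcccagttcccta
Gfra1 promoter 1: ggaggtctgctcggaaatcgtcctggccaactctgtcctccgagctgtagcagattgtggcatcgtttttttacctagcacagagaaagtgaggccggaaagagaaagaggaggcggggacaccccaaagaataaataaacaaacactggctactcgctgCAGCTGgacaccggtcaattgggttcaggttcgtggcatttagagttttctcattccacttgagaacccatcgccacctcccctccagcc
The first Gdnf promoter holds a TATA box from -31 to -26 relative to the start, and the second holds none of the 8 motifs. The first start lies 798 bases before the start of the gene in the deposited table, and the second lies 2881 bases inside it. The Artn promoter holds an E-box from -166 to -161 and a pair of GC boxes, read as CCGCCC, from -50 to -45 and from -30 to -25. The Gfra1 promoter holds 1 E-box from -90 to -85. Among 32851 promoters of the same length, 12.4% hold this TATA box, 13% the E-box and 32.7% the GC box. The shares are 6.75% for AP-1, 1.55% for CRE, 3.45% for CARE, 7.02% for STAT and 3.17% for FoxO, none of which matched in these 4 sequences.

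Levels are FPKM, reads scaled by gene length and by library as the authors deposited them, so levels can be compared between genes. Libraries held 14939830 to 23580603 reads assigned to genes, and both extremes were TV libraries. The reads behind each value could be recovered, and 9 of 10 members had at least 1 read in some library. Only Nrtn, Gdnf, Ret and Gfra1 had a mean of at least 0.5 FPKM and were tested with limma among 12754 genes. The other 6 were low and were tested 1 at a time by an exact permutation of libraries. Changes in limma are differences of log2(FPKM + 0.5) ± SE, and for low genes the added 0.5 makes a change look smaller than it is. Muscle fibre markers summed to 53777 to 61432 FPKM in TL, 52776 to 99793 in TV and 55197 to 70571 in NTV. Ucp1, the uncoupling protein of brown fat, was at 58.3 and 3.97 FPKM in TL replicates 1 and 5 and at 53.4 in NTV replicate 5, against at most 1.06 in the other 9 libraries. Reads of the mitochondrial genome made up 6.04 to 13.9% in TL, 5.08 to 7.70% in TV and 11.6 to 13.5% in NTV libraries.

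Nrtn, which encodes the ligand neurturin, stood far above the other members in FPKM. Its level in FPKM was the highest of the 10 genes in all 12 libraries. The lead was smaller in reads, since Nrtn has a gene length of 1023 bases and Ret 6763. Over the 12 libraries Nrtn had 1429 reads and Ret 1120. Nrtn had the most reads of the 10 genes in 3 of 4 TL, 3 of 4 TV and 2 of 4 NTV libraries. In TL and TV the next gene by mean was Gdnf, and in NTV it was Ret. The order of the rest differed between groups. In TV the ranges of Nrtn, Gdnf and Ret did not overlap, so these 3 levels were separate, while each of the lower neighbours from Ret down overlapped the next. In NTV the levels of Nrtn, of Ret with Gfra1, and of Gfra2 formed separate steps, and Gdnf and the genes below it overlapped their neighbours. In TL only Nrtn was separate from the gene after it.

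**Figure D1:**
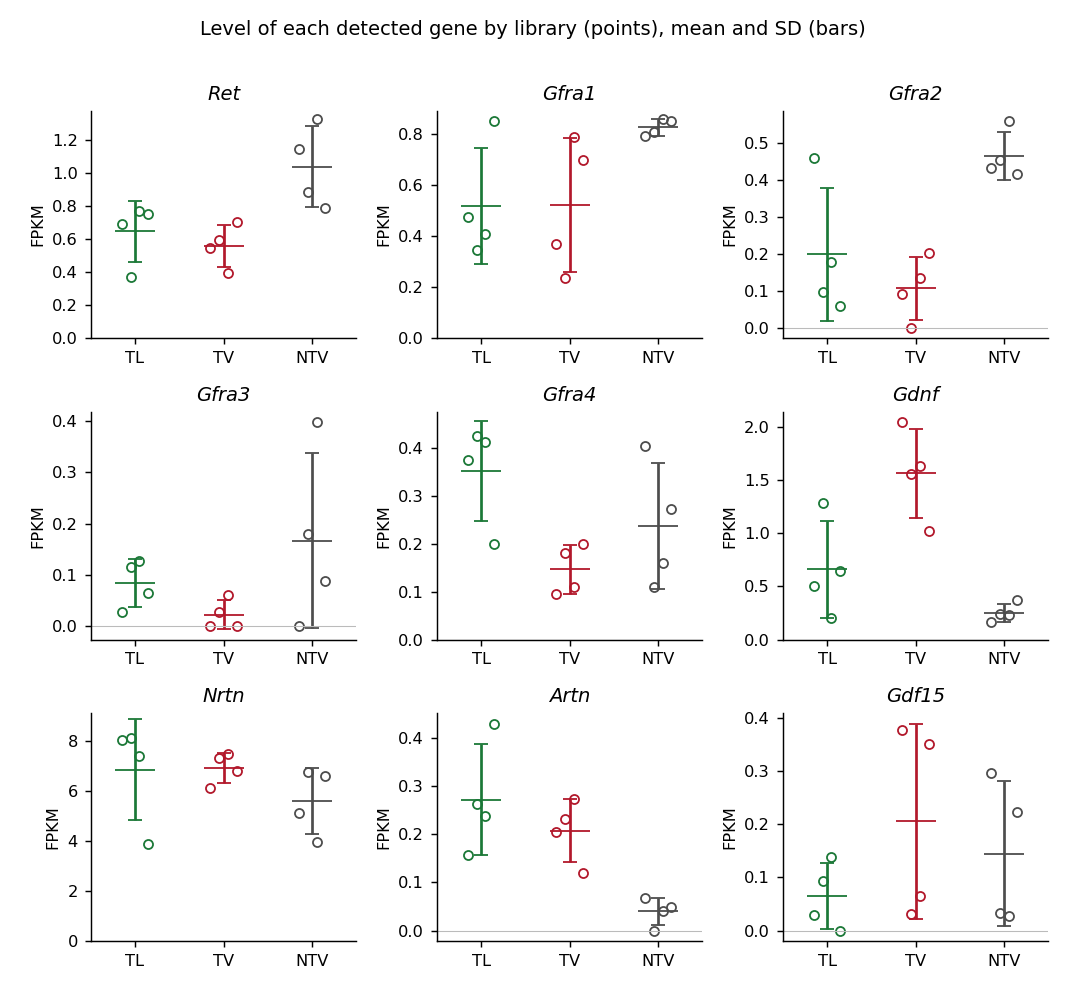
Level of each of the 9 detected genes in FPKM (y axis, a scale of its own in each panel) in TL, TV and NTV, with points for libraries and bars for the mean and SD of 4 libraries. Gdnf is highest in TV, at 1.02 to 2.04 FPKM, and Ret, Gfra1 and Gfra2 are higher in all 4 NTV libraries than in any TV library.

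The receptor Ret lies on chromosome 6 (mm10, 118151745 to 118197718, minus strand) with 20 merged exons. It was at 0.696, 0.373, 0.772 and 0.752 FPKM in TL replicates 1, 4, 5 and 7, and at 0.546, 0.596, 0.398 and 0.703 FPKM in TV replicates 3, 4, 6 and 8. In NTV replicates 2, 3, 5 and 6 it was at 1.15, 0.890, 1.33 and 0.791 FPKM. All 4 NTV libraries were higher than every TL and TV library, and TL and TV overlapped. These levels rest on 44 to 182 reads per library.

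Ret fell in TV against NTV, to a mean of 0.561 ± 0.127 FPKM in TV against 1.04 ± 0.246 in NTV (SD, n = 4 each). The log2 change was -0.53 ± 0.17 (limma, adjusted p = 0.0359). It was 1 of 2 members called among the 4 tested with limma, and the other, Gdnf, rose. Over all tested genes 25.2% were called in this comparison, 13.8% higher and 11.5% lower, and 2 of 4 is no result about the members as a set. The 4 TV values lay apart from the 4 NTV values for Ret, Gdnf and Gfra1, 3 of the 4 members, and for 27.1% of all tested genes. The call of Ret was lost when NTV replicate 2 (adjusted p = 0.0865) or 5 (0.0957), or TV replicate 3 (0.0730), 4 (0.0651) or 6 (0.0796) was left out. It was also lost with no filter on low values (0.0752) and when the 3 libraries with high Ucp1 were left out (-0.45 ± 0.18, adjusted p = 0.121).

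Between TL and TV, Ret averaged 0.648 ± 0.186 FPKM in TL and 0.561 ± 0.127 in TV. The log2 difference of 0.11 ± 0.17 did not pass (limma, adjusted p = 0.803), with a 95% interval from -0.26 to 0.47. In TL against NTV the difference was -0.43 ± 0.17 and was not called (limma, adjusted p = 0.123), although the libraries did not overlap. Non-overlap of these groups was seen in 20.8% of all tested genes.

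In bulk RNA, fewer cells of a type and less RNA per cell cannot be told apart. Over all tested genes 11.5% fell and 13.8% rose in TV against NTV. Of 12 markers of fibro-adipogenic progenitors, the connective tissue cells of muscle, 6 fell in TV against NTV and none rose. Their summed level was 122 to 246 FPKM in TL, 167 to 307 in TV and 267 to 379 in NTV. The most abundant were Gsn, Dcn and Cxcl14, and none of the 12 was at 0. These 3 were not called in TV against NTV (limma, adjusted p = 0.332, 0.499 and 0.368). Of 8 tested tendon markers 7 fell in TV against NTV, with sums of 18.8 to 48.3 FPKM in TL, 17.6 to 42.9 in TV and 67.4 to 130 in NTV. Thbs4, Fmod and Scx were the most abundant of them. Scx, a transcription factor of tendon, was at 11.2 ± 3.67 FPKM in TV and 4.89 ± 1.78 in NTV (limma, adjusted p = 0.0505). The part of either in the levels of Ret and the co-receptors was not tested.

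Schwann cells wrap axons in myelin and are a known source of GDNF. Of their 12 tested markers, among them Pmp22 and Mbp, 1 was called in TV against NTV and it was lower, as were 11.5% of all tested genes. That marker, S100b, lost its call when NTV replicate 2, 5 or 6 or replicate 3, 4 or 6 of TV was left out (highest adjusted p 0.0976), and the sums overlapped at 32.6 to 80.4 FPKM in TL, 40.2 to 75.9 in TV and 30.6 to 111 in NTV. Markers of neurons and axons summed to 0.770 to 1.54 FPKM in TL, 0.50 to 1.39 in TV and 1.10 to 1.99 in NTV, led by Stmn2 and Prph. Chat and Elavl4, which mark motor neurons and neuronal cell bodies, were listed at 0 in all 12 libraries.

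Gfra1, the preferred co-receptor of GDNF, lies on chromosome 19 (58235604 to 58455909, minus strand) and overlaps the antisense gene Gm16277, which was listed at 0. It was at 0.474, 0.346, 0.407 and 0.850 FPKM in the TL libraries and at 0.367, 0.235, 0.786 and 0.698 FPKM in the TV libraries. The NTV libraries lay close together at 0.790, 0.806, 0.859 and 0.848 FPKM. All 4 NTV libraries were above every TV library, while TL replicate 7 was within the NTV range. The SD was 0.227 FPKM in TL, 0.262 in TV and 0.0330 in NTV, so the NTV libraries had the smallest spread.

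Gfra1 did not pass in any comparison. Its log2 difference was -0.41 ± 0.20 in TV against NTV (limma, adjusted p = 0.146) and -0.40 ± 0.20 in TL against NTV (0.214). In TL against TV it was 0.01 ± 0.20 (0.991), with a 95% interval from -0.42 to 0.44. With voom, a test on the recovered reads, the difference in TV against NTV was -0.87 ± 0.33, and it was not called either (adjusted p = 0.0887).

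Gfra2, the preferred co-receptor of neurturin, lies on chromosome 14 (70890120 to 70979838, plus strand). It had 30, 6, 10 and 5 reads in the TL libraries, 8, 0, 8 and 10 in the TV libraries and 28, 27, 40 and 25 in the NTV libraries. The matching levels were 0.459, 0.0973, 0.180 and 0.0609 FPKM in TL, 0.0928, 0, 0.135 and 0.204 FPKM in TV and 0.433, 0.455, 0.560 and 0.415 FPKM in NTV. Every NTV library was above every TV library, and among the TL libraries only replicate 1 reached the NTV range. TL replicate 1 is a library with high Ucp1, and TL replicate 5, the other, was at 0.180 FPKM.

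Gfra2 was lower in TV than in NTV by 0.68 on the log2(FPKM + 0.5) scale (-0.68, exact two-sided permutation test, p = 0.0286, the smallest that 4 against 4 libraries can give). Of 7802 genes with a mean under 0.5 FPKM and at least 10 reads, 8.78% had groups that did not overlap in this comparison. On the recovered reads, Gfra2 fell by a log2 change of -2.79 ± 0.76 (voom, adjusted p = 0.0224 over 20546 genes), and 16.3% of those genes were called. When any 1 library was left out, the difference on the log2(FPKM + 0.5) scale lay between -0.75 and -0.59. The difference between TL and TV was 0.18 (exact permutation p = 0.457) and that between TL and NTV was -0.50 (exact permutation p = 0.114).

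Gfra3, the artemin co-receptor, is on chromosome 18 and was near the detection limit. It had 1 to 4 reads in the TL libraries, 0 to 2 in the TV libraries and 0 to 16 in the NTV libraries. NTV replicate 5, the library with high Ucp1, held 16 of the 25 NTV reads. The groups overlapped in all 3 comparisons. Exact permutation p was 0.171 for TV against NTV, 0.0857 for TL against TV and 0.514 for TL against NTV.

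Gfra4, the persephin co-receptor, lies on chromosome 2 (131039632 to 131043088, minus strand) and overlaps the microRNA gene Mir6973b, which was listed at 0. It was at 0.375, 0.424, 0.412 and 0.199 FPKM in TL libraries and at 0.0948, 0.181, 0.110 and 0.200 FPKM in TV libraries. The NTV libraries were at 0.405, 0.110, 0.160 and 0.271 FPKM. TL replicates 1, 4 and 5 were above every TV library, and TL replicate 7 was just below TV replicate 8. The difference between TL and TV was 0.39 and did not pass (exact permutation p = 0.0571). With each library scaled to an equal total of reads it was 0.43 and the groups separated (exact permutation p = 0.0286). That scaling raised the median of all tested genes by 0.117 in TL against TV, the same direction. The share of low genes that separate is known only for the deposited scaling, where it was 3.73%. With voom the log2 difference was 1.20 ± 0.48 and was not called (adjusted p = 0.320). Exact permutation p was 0.343 for TV against NTV and 0.200 for TL against NTV.

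Gfral, the receptor for GDF15, lies on chromosome 9 (76164102 to 76213657, minus strand) and had 0 reads in all 12 libraries. A count of 0 allows up to 3 reads, which is 0.0592 to 0.104 FPKM in a single library and 0.00656 FPKM over the 12 libraries together. These limits cover counting error only.

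**Figure D2:**
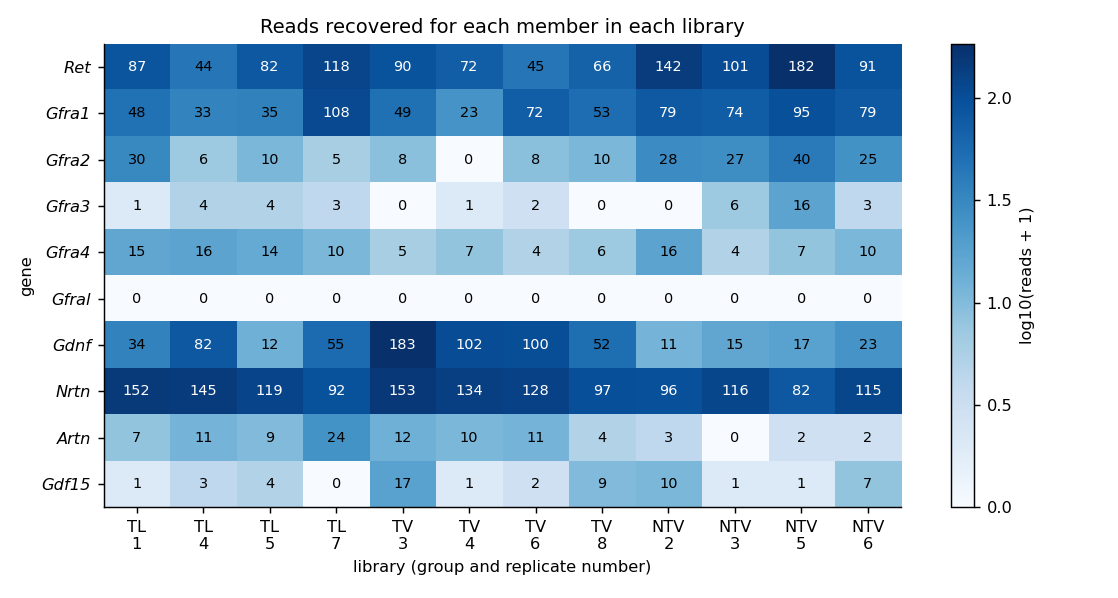
Reads recovered for each gene (rows) in each of the 12 libraries (columns, TL, TV and NTV with replicate numbers), with the colour on a log10(reads + 1) scale. Gfral is at 0 throughout, Artn has 0 to 3 reads in NTV libraries, and Gdnf reaches 183 reads in TV replicate 3.

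Gdnf, the ligand GDNF, lies on chromosome 15 (7810846 to 7837575, plus strand) with 3 exons. It was at 0.501, 1.28, 0.208 and 0.645 FPKM in the TL libraries and at 2.04, 1.55, 1.63 and 1.02 FPKM in the TV libraries. The NTV libraries were at 0.164, 0.243, 0.229 and 0.368 FPKM. Every TV library was above every NTV library, and the TL libraries spread from within the NTV range to within the TV range. The reads were 34, 82, 12 and 55 in TL, 183, 102, 100 and 52 in TV and 11, 15, 17 and 23 in NTV.

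Gdnf rose in TV against NTV, with means of 1.56 ± 0.420 FPKM in TV and 0.251 ± 0.0852 FPKM in NTV (SD, n = 4 each), which are 6.22-fold apart. The log2 change was 1.44 ± 0.25 (limma, adjusted p = 0.00282). It kept its call in all 12 fits that left out 1 library, with an adjusted p between 0.000976 and 0.0103. On the recovered reads, which need no added FPKM constant, the log2 change was 2.67 ± 0.47 (voom, adjusted p = 0.00236).

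In TL against TV, Gdnf averaged 0.659 ± 0.453 FPKM in TL and 1.56 ± 0.420 in TV. The log2 difference of -0.89 ± 0.25 did not pass over all genes (limma, adjusted p = 0.135, unadjusted 0.00406). No member was called here of the 4 tested, against 0.517% of all tested genes. Of the 4 members, Gdnf alone had an unadjusted p under 0.05, and voom called 0 of 9 members, against 0.307% of genes. No member's TL values lay apart from its TV values, against 7.42% of tested genes and 3.73% of low genes. TL replicate 4, at 1.28 FPKM, was the only TL library inside the TV range. Without it the difference was -1.12 ± 0.21 and was called (adjusted p = 0.0316). The range of adjusted p over the 12 fits without 1 library was 0.0316 to 0.334. Without TL replicates 1 and 5 the difference was -0.51 ± 0.24 (adjusted p = 0.680).

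In TL against NTV, Gdnf averaged 0.659 ± 0.453 FPKM in TL and 0.251 ± 0.0852 in NTV. The log2 difference of 0.55 ± 0.25 did not pass (limma, adjusted p = 0.177). Among the 4 members 0 were called, against 8.81% of all tested genes, while Ret and Gdnf had an unadjusted p under 0.05. Without TL replicates 1 and 5 the difference was 0.93 ± 0.24 and was called (adjusted p = 0.0391). With the 3 libraries high in Ucp1 left out it was 0.92 ± 0.26 and was not (adjusted p = 0.0763). TL and NTV were both compared with TV, so the 3 comparisons share libraries.

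The TL libraries also differed in adipose RNA. Adipocyte markers summed to 838, 228, 958 and 99.5 FPKM in TL replicates 1, 4, 5 and 7, and Gdnf was at 0.501, 1.28, 0.208 and 0.645 FPKM in the same libraries. Among these, TL replicates 1 and 5 had the highest sums and the lowest Gdnf, and TL replicate 7 had the lowest sum and not the highest Gdnf. In TV replicates 3, 4, 6 and 8 the sums were 303, 718, 156 and 346 FPKM, with Gdnf at 2.04, 1.55, 1.63 and 1.02 FPKM. The markers summed to 156 to 718 FPKM in TV and 90.0 to 306 in NTV, led by Cfd, Fabp4 and Adipoq. With limma 0 of the 8 were called in TV against NTV, where 13.8% of all tested genes (1755) rose and 11.5% fell. The fit without TL replicates 1 and 5 had 3 of the 8 higher, beside 1652 of all its genes. The fit without the libraries with high Ucp1 had 5 of the 8 higher, beside 1170 of all its genes. Without TL replicates 1 and 5, as given above, the Gdnf difference was smaller in TL against TV and larger in TL against NTV. A relation of Gdnf to the adipocyte sums was not tested.

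Markers of denervated muscle, a state in which the fibre loses its nerve, were also followed beside Gdnf. Of 8 tested, Myog and Gadd45a rose in TV against NTV and in TL against NTV, and none fell. Calls in either direction made up 25.2% and 8.81% of all tested genes in these comparisons. Of 12 fits that left out 1 library, Myog kept its call in 5 in TV against NTV and in 7 in TL against NTV, and Gadd45a in 4 and in 2 (highest limma adjusted p 0.120). With an equal total of reads, 0 of the 8 were called in TV against NTV, and with voom 2 were. Myog, a myogenic transcription factor, was at 30.4 ± 12.8 FPKM in TL, 24.2 ± 11 in TV and 11.5 ± 1.81 in NTV. The list summed to 64.5 to 140 FPKM in TL, 71.0 to 94.1 in TV and 43.7 to 63.7 in NTV. The sums of TL and of TV did not overlap those of NTV, with a narrow gap for TL (64.5 against 63.7). Among all tested single genes, 27.1% did not overlap in TV against NTV and 20.8% in TL against NTV. Chrne, the adult acetylcholine receptor subunit, was at 13.6 ± 2.06 FPKM in TL, 10.9 ± 3.9 in TV and 11.4 ± 3.06 in NTV. The fetal subunit Chrng, named after its values were seen, was low at 0.0311 to 0.214 FPKM in TL, 0 to 0.0144 in TV and 0.0143 to 0.946 in NTV. The part of denervation in the Gdnf level was not tested.

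Within a library, Gdnf and Ret stood in a different order in the 3 groups. Gdnf was above Ret in 1 of 4 TL libraries, 4 of 4 TV libraries and 0 of 4 NTV libraries. The TL library was replicate 4, at 1.28 FPKM for Gdnf and 0.373 for Ret.

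**Figure D3:**
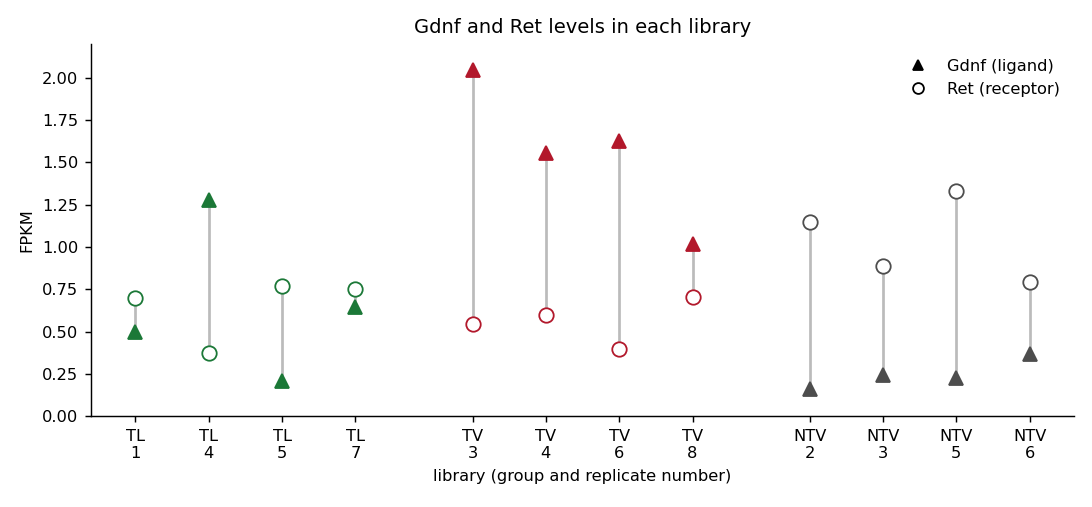
Level of Gdnf (triangles) and Ret (circles) in FPKM (y axis) in each library of TL, TV and NTV, with a line joining the pair. The triangle is above the circle in all 4 TV libraries and in TL replicate 4, and below it in the other 7 libraries.

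Nrtn lies on chromosome 17 (56751325 to 56757530, minus strand). It was at 8.04, 8.13, 7.40 and 3.88 FPKM in the TL libraries, at 6.14, 7.33, 7.48 and 6.83 FPKM in the TV libraries and at 5.14, 6.76, 3.97 and 6.61 FPKM in the NTV libraries. The groups overlapped, and TL replicate 7 was the lowest of all 12. Nrtn did not pass in any comparison. The log2 difference was 0.31 ± 0.22 in TV against NTV (limma, adjusted p = 0.321), -0.06 ± 0.22 in TL against TV (0.919) and 0.24 ± 0.22 in TL against NTV (0.501). The 95% intervals ran from -0.17 to 0.78, from -0.53 to 0.41 and from -0.23 to 0.71.

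Artn, the ligand artemin, lies on chromosome 4 (117926162 to 117929763, minus strand) and was rare in NTV muscle. It had 7, 11, 9 and 24 reads in the TL libraries, 12, 10, 11 and 4 in the TV libraries and 3, 0, 2 and 2 in the NTV libraries. The levels were 0.158, 0.262, 0.238 and 0.430 FPKM in TL, 0.205, 0.233, 0.273 and 0.120 FPKM in TV and 0.0683, 0, 0.0412 and 0.0489 FPKM in NTV. All 8 libraries of tumour-bearing mice were above all 4 NTV libraries, and TL and TV overlapped.

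Artn was higher in TV than in NTV by 0.39 and higher in TL than in NTV by 0.51 on the log2(FPKM + 0.5) scale (exact two-sided permutation p = 0.0286 for each, the smallest possible). Low genes with groups that did not overlap made up 8.78% in TV against NTV and 7.5% in TL against NTV. On the recovered reads, Artn rose in both, by 2.34 ± 0.63 in TV against NTV (voom, adjusted p = 0.0209) and by 2.69 ± 0.61 in TL against NTV (voom, adjusted p = 0.0206). It was the only 1 of 9 members called by voom in TL against NTV, against 6.05% of genes. The 95% intervals of 1.0 to 3.67 and 1.39 to 3.99 are wide, since the 4 NTV libraries hold 7 reads in all. When any 1 library was left out, the log2(FPKM + 0.5) difference lay between 0.34 and 0.45 in TV against NTV and between 0.41 and 0.58 in TL against NTV. The difference between TL and TV was 0.12 (exact permutation p = 0.400).

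Gdf15 lies on chromosome 8 (70629393 to 70632456, minus strand) and stayed low in all groups. It had 1, 3, 4 and 0 reads in the TL libraries, 17, 1, 2 and 9 in the TV libraries and 10, 1, 1 and 7 in the NTV libraries. The highest levels were 0.137 FPKM in TL, 0.377 in TV and 0.296 in NTV. In TV and in NTV a pair of libraries was higher than the other pair, and the groups overlapped in every comparison. The log2 difference on recovered reads was 0.52 ± 0.93 in TV against NTV (voom, adjusted p = 0.761), with a 95% interval from -1.47 to 2.5. It was -1.61 ± 1.02 in TL against TV (0.547) and -1.09 ± 1.06 in TL against NTV (0.593). The exact permutation p was 0.543, 0.257 and 0.314 for these 3 comparisons.

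Pspn, which encodes persephin and completes the ligand family, had 0 to 4 reads in the TL libraries and 0 to 2 in the TV and NTV libraries. Across the family, voom called 4 of 9 members in TV against NTV, with Gdnf and Artn higher and Ret and Gfra2 lower in TV, against 16.3% of 20546 genes.

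**Figure D4:**
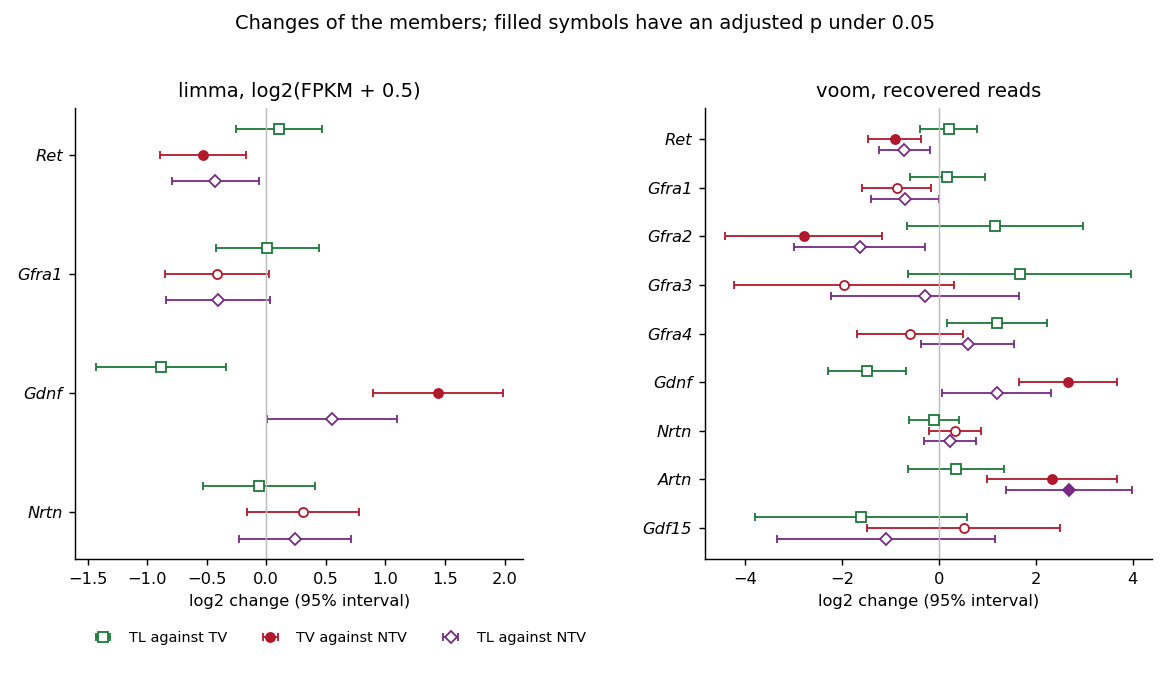
Log2 change (x axis) with 95% interval of each member by limma on log2(FPKM + 0.5) (left, 4 genes) and by voom on recovered reads (right, 9 genes), with squares for TL against TV, circles for TV against NTV and diamonds for TL against NTV. Filled symbols, which have an adjusted p under 0.05, are Ret and Gdnf in both panels and Gfra2 and Artn on the right in TV against NTV, and Artn in TL against NTV.

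Genes with profiles most like those of the tested members were found by the mean absolute difference of centred log2(FPKM + 0.5) over the 12 libraries. The nearest to Gdnf were Slc15a4 (0.162), Ddi2 (0.166) and Myo18b (0.166), the last a myosin of striated muscle. The deviation of Gdnf from its own mean was 0.615 on the same scale, so the likeness is partial. Myo18b averaged 41.7 FPKM in TL, 73.3 in TV and 33.2 in NTV. The nearest to Ret were Man1c1 (0.0698), Mppe1 (0.0802) and Sri (0.0994), against a deviation of Ret of 0.228. Those nearest to Gfra1 were Setdb1 (0.101), Cd276 (0.106) and Acvr1 (0.108), against 0.290 for Gfra1 itself. Those nearest to Nrtn were Tmem219 (0.147), Gm2606 (0.151) and Haus7 (0.151), against 0.260 for Nrtn itself, so for Nrtn the likeness is weak.

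Other partners of the ligands and receptors were largely not called. Over all tested genes 13.8% rose and 11.5% fell in TV against NTV, with a median log2 change of 0.02. Of 6 partners tested, 1 rose and none fell, with a median of 0.04. It was Furin, a protease that matures many growth factor precursors, at 7.75 ± 0.815 FPKM in TV and 4.96 ± 0.807 in NTV (0.60 ± 0.11, limma, adjusted p = 0.00417). Without the libraries with high Ucp1, 2 rose. In TL against TV none of the 6 was called, and the most abundant were Gas1, a relative of the co-receptors (9.15 ± 3.97 FPKM in TL and 9.05 ± 1.03 in TV), and Sorl1, a sorting receptor (7.18 ± 0.709 and 8.15 ± 0.986 FPKM in TL and TV). Mmp14, a membrane protease known to cleave GFRAL, fell in TL, to 0.943 ± 0.188 FPKM in TL against 1.99 ± 0.295 in NTV (-0.79 ± 0.16, limma, adjusted p = 0.0131). It lost its call without TL replicates 1 and 5 and without the libraries with high Ucp1.

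Adaptors and effectors bind or act below active RET. Of 19 tested, with a median of -0.15, 3 rose and 4 fell in TV against NTV, beside 13.8% and 11.5% of all tested genes. With no filter on low values 3 of the adaptors rose and none fell, beside 1323 higher and 1224 lower of all genes in that fit. Irs2, an insulin receptor substrate, was at 40.0 ± 27.1 FPKM in TV and 6.75 ± 3.10 in NTV (2.38 ± 0.63, limma, adjusted p = 0.0184). Pik3r1, the regulatory subunit of phosphoinositide 3-kinase, rose by 1.03 ± 0.28 (0.0202), and the docking protein Dok4 fell (-1.0 ± 0.29, 0.0258). Leaving out NTV replicate 2 or TV replicate 3 ended the call of Irs2 (highest adjusted p 0.0539), and leaving out replicate 3 of NTV or of TV ended that of Pik3r1 (0.0530). That of Dok4 was lost when NTV replicate 2, 3 or 5 or replicate 3 or 4 of TV was left out (highest 0.0718). Gab1, an adaptor named after its values were seen, rose by 0.64 ± 0.12 (limma, adjusted p = 0.00324). It kept its call in all 12 fits without 1 library (highest 0.0119). Without the libraries with high Ucp1, 2 of the 19 were called, both higher.

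None of the adaptors was called in TL against TV, beside 0.517% of all tested genes. Irs2 was at 12.4 ± 10.9 FPKM in TL and 40.0 ± 27.1 in TV (-1.91 ± 0.63, limma, adjusted p = 0.183), and Grb2, the adaptor that links receptors to RAS, was at 17.4 ± 0.779 in TL and 18.1 ± 2.03 in TV. Against NTV, Pik3r1 rose in TL (1.39 ± 0.28, 0.0131) and Dok5 fell (-1.15 ± 0.27, 0.0227). The call of Dok5 was lost when NTV replicate 2 or 5 or TL replicate 4 or 7 was left out (up to 0.0681). Neither was called without the libraries with high Ucp1.

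Feedback and target genes of the ERK pathway, which many receptor kinases besides RET drive, were followed next. Of 14 tested, with a median of -0.14, 2 rose and 5 fell in TV against NTV, beside 13.8% and 11.5% of all tested genes. None rose and 5 fell with an equal total of reads, and none rose and 3 fell with no filter on low values or with only the compared groups in the fit. Over all genes of these fits, 972 rose and 2094 fell with an equal total, which moves all genes downward here. With no filter 1323 rose and 1224 fell, and with only the compared groups 1513 rose and 1299 fell. Dusp6, an ERK phosphatase, fell to 2.92 ± 0.850 FPKM in TV, against 6.54 ± 1.33 in NTV (-1.06 ± 0.24, limma, adjusted p = 0.00895), and kept its call when any 1 library was left out. Ier3 (0.86 ± 0.26, 0.0347) and Phlda1 (0.71 ± 0.24, 0.0472), both early response genes, rose. The call of Ier3 was lost when NTV replicate 2, 3 or 5 or replicate 3 or 4 of TV was left out (highest 0.0871), and that of Phlda1 held in 1 of 12 such fits (up to 0.0998). Without the libraries with high Ucp1, Dusp6 alone was called.

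None of the 14 passed in TL against TV, with Ier3 at 10.6 ± 2.06 FPKM in TL and 8.87 ± 3.72 in TV and Egr1 at 5.0 ± 6.23 in TL and 10.6 ± 5.92 in TV. Ier3 rose in TL against NTV (1.16 ± 0.26, limma, adjusted p = 0.0218), a call lost when NTV replicate 3 or 5 or replicate 1 or 4 of TL was left out (highest 0.0640). Dusp6 fell (-0.86 ± 0.24, 0.0466), a call that held in 4 of 12 fits without 1 library (up to 0.110).

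Gdf15 is known to be induced by the integrated stress response and by p53, and genes of both were followed. Of 21 tested stress response genes, with a median of 0.13, 5 rose and 1 fell in TV against NTV. The shares of all tested genes were 13.8% and 11.5%. With no filter on low values 3 stress response genes rose and none fell, beside 1323 higher and 1224 lower of all genes in that fit. Ddit4, an inhibitor of mTORC1 signalling, was at 99.7 ± 33.8 FPKM in TV and 16.5 ± 16.6 in NTV (3.22 ± 0.95, limma, adjusted p = 0.0287). Chac1, which degrades glutathione, was at 109 ± 56.7 FPKM in TV and 19.2 ± 4.96 in NTV (2.36 ± 0.49, 0.00612). Ppp1r15a, which restores translation after stress, rose by 1.71 ± 0.26 (0.00153). The call of Ddit4 was lost when replicate 2 or 6 of NTV or 3, 4 or 6 of TV was left out (highest 0.0806).

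Sesn2, a stress-induced sestrin, was the only 1 of the 21 called in TL against TV, at 1.41 ± 0.184 FPKM in TL and 0.759 ± 0.0778 in TV (0.60 ± 0.11, limma, adjusted p = 0.0395). It was called in TL against NTV as well (0.40 ± 0.11, 0.0473). Over all tested genes 0.517% and 8.81% were called in these comparisons. The calls of Sesn2 held in 1 of 12 and 2 of 12 fits without 1 library (adjusted p up to 0.138 and 0.121). Both were lost with no filter, with only the compared groups, with voom and without the libraries with high Ucp1.

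Of 11 p53 targets, with a median of 0.53, 4 rose and 2 fell in TV against NTV, beside 13.8% and 11.5% of all tested genes. Btg2, an antiproliferative gene, was at 92.3 ± 32.4 FPKM in TV and 27.8 ± 23.6 in NTV (2.00 ± 0.67, limma, adjusted p = 0.0478), and its call held in 4 of 12 fits without 1 library (up to 0.127). Sesn1 rose by 1.45 ± 0.26 (0.00330) and Eda2r, a receptor of the TNF receptor family, by 1.11 ± 0.29 (0.0161), and both kept their calls in all 12. Ccng1 fell (-0.61 ± 0.15, limma, adjusted p = 0.0152), as did Zmat3, named after its values were seen (-0.54 ± 0.13, 0.0118). These calls also held in all 12, and Zmat3 lost its call without the libraries with high Ucp1. None of the 11 was called in TL against TV or TL against NTV, beside 0.517% and 8.81% of all tested genes. The most abundant, Ccng1, was at 257 ± 12.5 FPKM in TL, 218 ± 52.0 in TV and 327 ± 34.0 in NTV. Phlda3 was at 89.4 ± 47.7 FPKM in TL, 47.5 ± 23.5 in TV and 76.8 ± 19.2 in NTV.

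**Figure D5:**
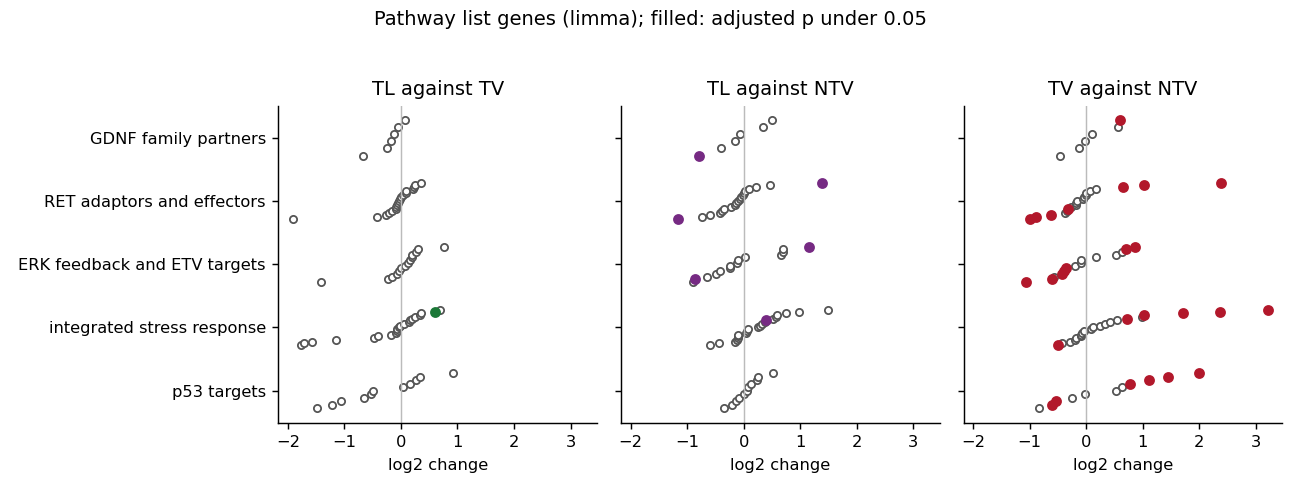
Log2 change by limma (x axis) of each tested gene of 5 lists (rows) in TL against TV, TL against NTV and TV against NTV, with filled points for genes with an adjusted p under 0.05. Filled points stand on both sides of 0 in TV against NTV for RET adaptors, ERK feedback genes, stress response genes and p53 targets, and Sesn2 is the only filled point in TL against TV.

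Markers of the other cells of muscle were counted in TV against NTV, where 13.8% of all tested genes were higher and 11.5% lower. None of 9 macrophage markers was called, 2 of 10 endothelial markers were lower, 1 of 10 smooth muscle and pericyte markers was higher, 1 of 6 satellite cell markers was higher and 2 of 10 muscle fibre markers were higher. Summed macrophage markers were 23.1 to 42.4 FPKM in TL, 25.3 to 60.8 in TV and 23.0 to 58.8 in NTV. Summed satellite cell markers were 60.4 to 73.1 FPKM in TL, 42.8 to 63.0 in TV and 29.2 to 39.9 in NTV. Myod1, listed here with the satellite cell markers, rose in TL against TV (1.69 ± 0.28, limma, adjusted p = 0.0233). It lost its call when replicate 3 or 4 of TV or 1, 5 or 7 of TL was left out (highest 0.0857). The call was also lost with no filter, with only the compared groups, without TL replicates 1 and 5 and without the libraries with high Ucp1. Myod1 averaged 37.2 FPKM in TL, 11.7 in TV and 11.6 in NTV, a large part of the sums above. The other 5 tested satellite cell markers were not called in TL against TV. Cdh15, Sdc4 and Chodl were at -0.76, -0.24 and -0.04 there, and Pax7 and Myf5 at 0.20 and 0.36. No marker of the other 10 lists was called in TL against TV.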

How the data were processed

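The 12 libraries, 4 each of TL, TV and NTV, were made from poly(A) RNA with random hexamer priming, per the labels' protocols, and the sources used here do not say whether counting used strand. HISAT2 2.05, featureCounts 1.5.0-p3, DESeq2 and mm10 are named in the submitters' processing notes, without their role. The authors deposited FPKM for 54532 genes, with gene lengths. Values times length came in whole steps within 0.1 read for 100% of values, which gave back the reads, and the steps matched median-of-ratios factors.

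The 12754 genes with a mean of at least 0.5 FPKM were fitted in limma 3.58.1 (R 4.3.3) as log2(FPKM + 0.5), using every library, group means and a trended prior. Called means an adjusted p (Benjamini-Hochberg, over those genes) under 0.05. Lower members were tested by exact two-sided permutation, and voom in limma on recovered reads of 20546 genes with at least 10 reads was added. On simulated data for TV against NTV, limma recovered 62 of 94 2-fold and 83 of 94 4-fold changes with 10 false calls, and voom 62 and 81 of 100 with 6. The changed genes were drawn from those with a mean of at least 0.5 FPKM, so voom at the levels of Gfra2 and Artn was not covered. They were a far smaller share than the 25.2% called in the data, so the false calls need not carry over.

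All members and Pspn are named, with up to 3 called genes of largest change per list and comparison, or the 2 most abundant where none was called, and up to 3 of the most abundant markers of a list. The members, the 5 pathway lists and the 11 marker lists were chosen with earlier results of these data known. Promoters come from RefSeq (GRCm38.p6). Permutation tests used scipy 1.17.1 and numpy 2.4.6 in Python 3.11.15, tables pandas 2.3.3 and plots matplotlib 3.10.9.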

Additional observations from a re-analysis of the deposited data

How the results depend on the processing

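Other pseudocounts, filters and scalings, a fit without the trend, a fit of only the compared groups, voom, a replicate block and fits without each library were tried. Leaving out TL replicates 1 and 5, or the 3 libraries whose Ucp1 exceeds 2 FPKM, was chosen after seeing the data. Gdnf, whose mean of 0.824 FPKM kept it out of the fit of genes with at least 1 FPKM, was called in TV against NTV in each of the other settings but the block, with 1.33 to 1.58 when 1 library was left out. Ret in TV against NTV, at -0.53 with an adjusted p of 0.0359, was not called with no filter (-0.53, 0.0752) or without the libraries with high Ucp1 (-0.45, 0.121), and ran from -0.61 to -0.45 when 1 library was left out. In TL against TV, Ret was at -0.013 without TL replicates 1 and 5 and -0.013 without the libraries with high Ucp1. Without 1 library, TL against TV ran from -0.14 to 0.13 for Gfra1, from -1.12 to -0.68 for Gdnf and from -0.16 to 0.17 for Nrtn. With an equal total of reads, Nrtn was at 0.060 in TL against TV and Gfra4 at 0.43 (exact permutation p = 0.0286). In TL against NTV, Gdnf was at 0.93 without TL replicates 1 and 5 (adjusted p = 0.0391), and Nrtn was at -0.11 without the libraries with high Ucp1. The cause of these shifts was not tested.

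Genes called in TL against TV numbered 66, against 19 with no filter, 131 with an equal total of reads, 8 with only the compared groups, 4 without TL replicates 1 and 5, and 0 without the libraries with high Ucp1 (limma, 908 at an unadjusted p under 0.05). They ran from 7 to 282 when 1 library was left out. In TL against NTV 1123 became 742 with no filter and 712 without the libraries with high Ucp1, with 514 to 1289 when 1 library was left out. In TV against NTV 3217 ran from 2223 to 3443. An equal total moved the split to 972 higher and 2094 lower in TV against NTV (1755 and 1462 as reported) and to 112 higher and 19 lower in TL against TV (30 and 36). It shifted the median of all genes by 0.117 in TL against TV and by -0.0916 in TV against NTV.

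Replicate numbers recur between groups, and the labels do not say whether they pair animals. Same-numbered libraries correlated by 0.0142 to 0.133 over 4 pairs, with a median of 0.081. Over the 44 other pairs the range was -0.227 to 0.238 and the median -0.0023. The 4 pairs are too few to settle the question, and the numbers were not taken as pairs. With the number as a replicate block, limma called 0 genes in each comparison. An unadjusted p under 0.05 was reached by 2711 in TV against NTV, 777 in TL against TV and 1422 in TL against NTV. In the same order, voom without a block called 3349, 63 and 1243. TL replicates 1 and 7, NTV replicate 2 and TV replicate 8 have numbers found in 1 group only, so they add nothing to the differences under the block. The block leaves few degrees of freedom, so its lack of calls cannot tell no change from too little power. Under the block, TV against NTV gave Gdnf 1.26 (adjusted p = 0.154) and Ret -0.41 (0.281), and TL against TV gave Ret -0.22 and Nrtn 0.41. Depth limits Gfral, Pspn, Gfra3 and Gdf15, with 0, 13, 40 and 56 reads over all 12 libraries, and permutations of 3 against 4 libraries cannot go below 0.0571, so no p is given for low members without 1 library.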
